A study of Canis lupus familiaris with 18 samples.

Results

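The comparison asked where the response to rapid ventricular pacing differed between 2 chambers of the dog heart, right atrium (RA) and right ventricle (RV). It used 17 of the 18 arrays of the series: 5 of paced RA, 3 of control RA, 6 of paced RV and 3 of control RV. For each gene, the pacing effect in a chamber was the average of the 2-week and 5-week group means minus the mean of that chamber's controls. The chamber difference was the pacing effect in RA minus the pacing effect in RV, so a positive value means a higher shift in RA. All of these are differences of log2 signal, in which 1 unit is a doubling. One array, labelled RA 5 weeks, replicate 3, was left out because its chamber markers were those of a ventricle: it read 14.17 for MYL2 and 13.89 for MYL3, the ventricular myosin light chains, against 10.59 to 10.99 and 8.81 to 9.22 in the other paced RA arrays of that stage. With it left out, RA at 5 weeks had 2 arrays, and every other group had 3.

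The arrays measured total RNA from a piece of tissue of each chamber, frozen after the animals were killed. Dogs were adult mongrels or beagles, the breed of each animal not being given, and heart failure was produced by continuous ventricular pacing for 2 weeks (early; 2 to 3 in the protocol text) or 5 weeks (late; 5 to 6). Controls are labelled only as controls, and no group carried any other labelled treatment. Replicates are called biological, but no animal is identified, so a p-value here measures only how these samples spread, which may be technical. In such bulk samples, fewer cells of a type and less RNA per cell cannot be told apart.

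Fast ventricular pacing weakens the pump and raises filling pressures, and the thin-walled atrium is known for marked inflammation and interstitial fibrosis in this model. Atrial and ventricular myocytes carry different myosin light chains and ion channels, so the chambers start from different programmes. Myocytes share the tissue with fibroblasts, macrophages, vessels and fat, and macrophages present peptides to T cells on class II molecules of the major histocompatibility complex (MHC), which the dog genome calls DLA.

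Each gene was represented by its probe set of highest mean signal, and 10986 genes above a signal limit of 5.31 were tested with limma, two-sided, with p-values adjusted over all of them (Benjamini-Hochberg, threshold 0.05). Values below that limit lie near background. The highest values on the arrays lay between 14.40 and 14.49, so genes near 14 had little room to rise. RNA quality was read from control probe sets at both ends of a transcript: the 3′ signal exceeded the 5′ signal by 1.05 to 1.62 for GAPDH in all groups. For EF1A the gap was 9.24 to 9.64 in the RA groups, 8.01 to 8.28 in RV controls, 8.19 to 8.76 in RV at 2 weeks and 8.51 to 8.86 in RV at 5 weeks. The part of this gap in the chamber differences was not tested. The median standard error (SE) of a chamber difference was 0.15.

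Most genes that passed in RA were shifted the same way in RV, and more genes passed in RA. In RA 305 genes rose (2.78% of the genes tested) and 153 fell (1.39%), and in RV 42 rose (0.382%) and 27 fell (0.246%). Over the 305 genes that rose in RA, the median RA effect was 0.71. Their median RV effect, measured on arrays that may come from the same animals, was 0.30. Of these genes 282 had a positive RV effect (92.5%, against 47.0% of all genes), 17 also rose in RV and 0 fell there. Of the 153 that fell in RA, 134 had a negative RV effect (87.6%, against 52.9% of all genes), with medians of -0.52 in RA and -0.24 in RV, and 11 also fell in RV. The genes were chosen on their RA effect, which tends to make that effect the larger of the pair. Across all genes, which are not independent replicates, the effects of the chambers correlated with Pearson r = 0.53 and Spearman rho = 0.40. RA and RV arrays of 1 number deviated together in controls and at 2 weeks, so the effects of the chambers may not be independent. With the left-out array included, 35 genes passed in RA and 0 in RV.

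**Figure D1:**
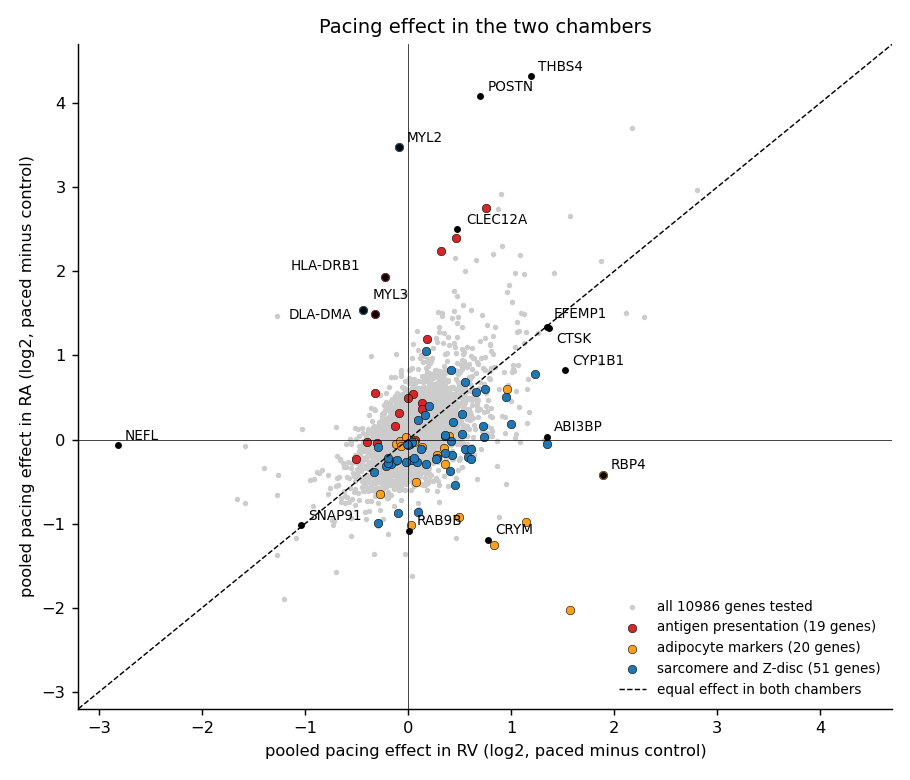
Pooled pacing effect in RA (vertical axis) against that in RV (horizontal axis), both as log2 differences from control, 1 point per gene; colours mark 3 gene lists and the dashed line marks equal effects. Most genes lie near the origin, MHC class II genes, THBS4, POSTN and MYL2 lie well above the line, and ADIPOQ (the lowest orange point) and RBP4 lie below it.

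The 28 genes that passed in both chambers all moved the same way, but these are few of the genes that passed in RA. CTSK, a collagen-degrading cathepsin, rose by 1.32 (SE 0.24) in RA and 1.37 (SE 0.23) in RV. Its chamber difference was -0.04, with a 95% interval of -0.74 to 0.65. EFEMP1, an elastic-fibre glycoprotein, rose in both chambers, by 1.34 in RA (interval of the difference -0.80 to 0.79), and LUM, the collagen-binding proteoglycan lumican, by 0.80 and 0.93 (interval of the difference -0.62 to 0.36). VIM, the intermediate filament of mesenchymal cells, rose by 0.61 and 0.69 (interval -0.47 to 0.32). SNAP91, a clathrin assembly protein of nerve terminals, had effects of -1.02 and -1.04, and VEGFA, the main angiogenic growth factor, of -0.67 and -0.61. Both passed in each chamber. These genes were picked from the 28 after their values were seen. Their intervals allow chamber differences of several sizes, so they do not show that the chambers act alike.

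The chamber difference itself passed the threshold in 1 gene, DLA-DMA (0.00910% of the genes tested). At an unadjusted p under 0.05, 407 genes had a higher pacing effect in RA than in RV (3.70%) and 365 a lower one (3.32%). That is 772 in all, or 7.03%. For 269 genes (2.45%) every paced RA array was shifted further up from its controls' mean than every paced RV array, and for 270 (2.46%) the reverse held. Such genes are called separated below.

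DLA-DMA encodes a chain of the DM molecule, which loads peptides onto class II. In RA it read 6.20, 5.93 and 5.74 in controls, 7.67, 6.78 and 7.53 at 2 weeks, and 7.86 and 7.29 at 5 weeks. In RV it read 6.85, 7.29 and 6.75 in controls, 6.50, 6.39 and 6.30 at 2 weeks, and 7.03, 7.01 and 6.62 at 5 weeks. Every paced RA array was above every RA control, whereas the 2-week RV arrays all lay below the RV controls and the 5-week arrays overlapped them. The gene rose by 1.49 (SE 0.19, adjusted p = 0.000808 in limma) in RA, and the RV effect was -0.32 (SE 0.18, adjusted p = 0.486). The chamber difference was 1.82 (SE 0.27, adjusted p = 0.0392 in limma, 95% interval 1.25 to 2.38). Control RA lay 1.01 below control RV (adjusted p = 0.00913 in limma), and paced RA 0.81 above paced RV (adjusted p = 0.00228 in limma). A second DLA-DMA probe set gave a chamber difference of 1.26. The left-out array read 6.37, and with it the difference was 1.61 and no longer passed (adjusted p = 0.674 in limma). The DLA-DMA interaction, as the chamber difference is called in the model, also did not pass when the paced arrays were weighted equally (adjusted p = 0.0687), with the mean of the gene's probe sets (0.234) or with a robust variance prior (0.0728). It stayed past the threshold in 3 of the 17 fits that left out 1 array. With a fixed replicate block over complete pairs, which also leaves out RV 5-week replicate 3, 6 genes passed. DLA-DMA, HLA-DRB1, CLEC12A, DLA-DQB1 and THBS4 were among them. That fit also paired 5-week arrays by number, which did not deviate together.

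DLA-DMA belongs to the antigen presentation list. Of the 19 genes of the list that were tested, 10 rose in RA (2.78% of all genes did) and 0 fell (1.39%). In RV 0 passed, where 0.382% of all genes rose and 0.246% fell. The median chamber difference of the list was 0.41, against 0.00 over all genes. At an unadjusted p under 0.05, 9 members had a higher pacing effect in RA than in RV, against 3.70% of all genes. With the left-out array included, 4 did.

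The class II chains led the list. HLA-DRB1, the array annotation's symbol for a dog DR beta chain, read 9.19, 8.67 and 8.70 in RA controls, 11.41, 10.15 and 10.76 at 2 weeks, and 11.05 and 10.53 at 5 weeks. In RV the same gene read 9.19, 9.98 and 9.53 in controls, 9.47, 9.30 and 8.68 at 2 weeks, and 9.86, 9.52 and 9.20 at 5 weeks. The paced RA arrays lay wholly above their controls, and the paced RV arrays overlapped theirs. HLA-DRB1 rose by 1.93 in RA, its RV effect was -0.23, and its chamber difference of 2.16 (SE 0.37) did not pass (adjusted p = 0.0759 in limma).

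DLA-DQB1, a DQ beta chain, read 6.60, 6.15 and 5.77 in RA controls and 7.27 to 9.07 in paced RA, against 6.27 to 6.58 in RV controls and 6.39 to 7.32 in paced RV, with a chamber difference of 1.92 (SE 0.38, adjusted p = 0.262 in limma). DLA-DQA1, its alpha partner, rose by 2.75 in RA with an RV effect of 0.76, and DLA-DRA, the DR alpha chain, by 2.39 with an RV effect of 0.47. Paced RA arrays read 8.51 to 10.18 for DLA-DQA1 and 10.29 to 11.55 for DLA-DRA, above all control arrays of either chamber. CD74, the invariant chain that escorts class II molecules, rose in RA (adjusted p = 0.0135 in limma) and had a chamber difference of 1.01. DLA-DMB, the partner of DLA-DMA, rose by 0.56 in RA with an RV effect of -0.32. DLA-DQA1, DLA-DRA and CD74 lie outside the rule for named genes and were taken up after their values were seen. Class II chains are similar in sequence, and whether their probe sets share signal was not tested.

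Genes of other steps of antigen presentation had smaller values. PSMB8 and PSMB9, inducible proteasome subunits, rose in RA by 0.50 and 0.54 with RV effects of 0.00 and 0.05. B2M, the light chain of class I, rose by 0.43 with an RV effect of 0.13. CIITA, the activator of class II transcription, had a chamber difference of -0.04, and the peptide transporter genes TAP1 and TAP2 had chamber differences of 0.41 and 0.27 that did not pass. DLA88, a polymorphic class I gene, stood apart in its spread: RA controls read 11.21, 11.49 and 8.85 and RV controls 10.83, 11.47 and 8.55, the 2-week arrays 11.66, 11.05 and 8.59 in RA and 10.86, 10.96 and 7.82 in RV. In controls and at 2 weeks, replicate 3 was the low array in both chambers. At 5 weeks the used RA arrays read 8.63 and 11.63 and RV read 8.92, 8.44 and 11.64, so there the numbers no longer matched. All of these genes outside the class II group were also named after their values were seen.

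**Figure D2:**
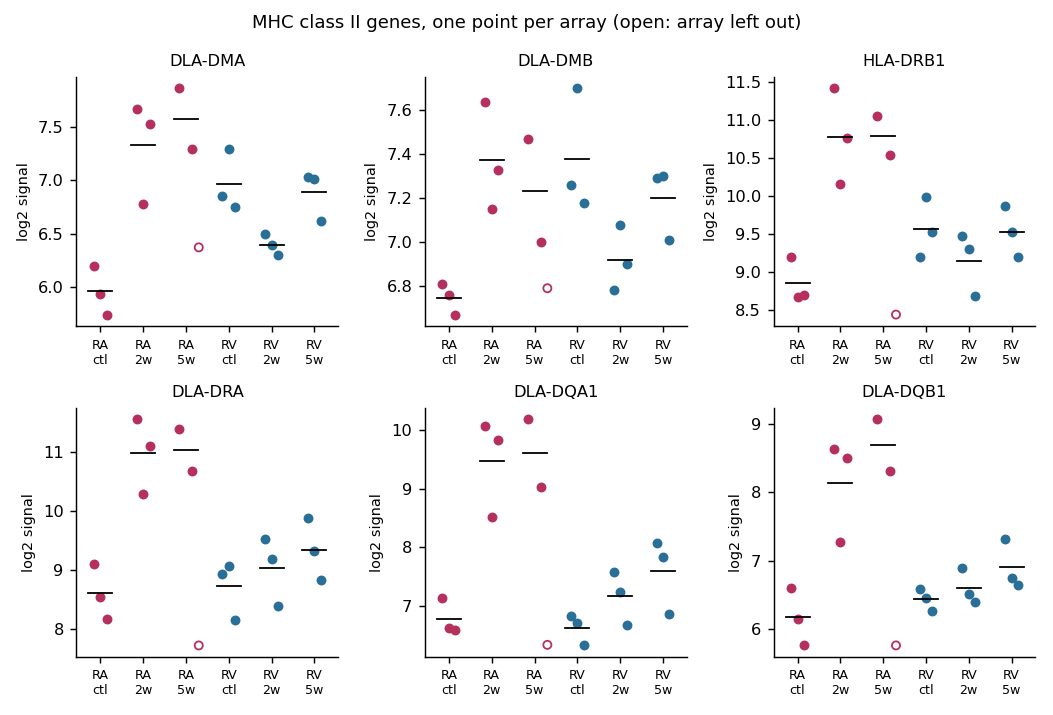
Log2 signal of 6 MHC class II genes in each array, by chamber (RA red, RV blue) and group, with bars at group means; the open point is the array left out. Paced RA arrays lie above RA controls for each of the 6 genes, while RV arrays overlap or lie below theirs for DLA-DMA, DLA-DMB and HLA-DRB1.

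Most macrophage markers also had a higher pacing effect in RA than in RV, but they were shifted up in RV too. Of 15 macrophage and myeloid markers tested, 8 rose and 0 fell in RA (2.78% and 1.39% of all genes). In RV 1 rose (0.382% of all genes). The median effect was 0.54 in RA and 0.30 in RV, where 13 of the 15 were above 0. The median chamber difference was 0.31, with 0.58 at 2 weeks and 0.14 at 5 weeks. For the antigen presentation list the stage medians were 0.47 and 0.45, and the median RV effect was 0.00. Of the macrophage markers 6 were higher and 0 lower at an unadjusted p under 0.05, against 3.70% and 3.32% of all genes. The mean level of these markers was 7.18 to 7.30 in RA controls, 7.79 to 8.55 in RA at 2 weeks and 7.85 to 8.36 at 5 weeks. In RV it was 7.06 to 7.22, 7.02 to 7.53 and 7.56 to 7.64. The mean level of the 11 T, B and NK cell markers tested lay between 6.52 and 6.70 in all 17 arrays. Of these markers 0 passed in either chamber. At an unadjusted p under 0.05, 3 of them were higher in paced than in control RA, as were 1181 of all 10986 genes. With the left-out array included, 0 macrophage markers were past the unadjusted threshold. The part of macrophage content in the class II values was not tested.

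CLEC12A, an inhibitory lectin receptor of myeloid cells, read 5.64 to 5.78 in RA controls and 8.49, 6.80, 7.74, 9.01 and 8.42 in paced RA, against 5.15 to 5.72 and 5.06 to 6.48 in RV. Its chamber difference was 2.03 (SE 0.40, adjusted p = 0.258 in limma). CTSS, the cathepsin that trims the invariant chain, passed in both chambers, with a rise of 2.19 in RA and 1.08 in RV, and a chamber difference of 1.11. LYZ (lysozyme), TYROBP (a signalling adaptor of myeloid receptors) and CYBB (the phagocyte oxidase) rose in RA, with chamber differences of 1.07, 1.17 and 1.23 and RV effects of 0.53, 0.33 and 0.48 that did not pass. BPI, a granule protein that binds bacterial endotoxin, rose by 2.30 in RA with an RV effect of 0.92 (adjusted p = 0.141 in limma). It was the 1 of 7 neutrophil markers that passed in RA, where 2.78% of all genes rose.

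Chemokines, complement and interferon genes gave a mixed picture. CCL2, which draws monocytes, read 6.51 to 6.66 in RA controls and 7.82 to 9.53 in paced RA, against 6.60 to 6.65 and 6.76 to 7.86 in RV. It rose by 2.13 in RA, with an RV effect of 0.66 (adjusted p = 0.309) and a chamber difference of 1.47 (SE 0.40). Over the 28 cytokine and chemokine genes the median difference was 0.06, and 3 rose in RA (2.78% of all genes did). Of 18 complement genes 10 rose in RA (2.78% of all genes did) and 0 passed in RV, where 0.382% of all genes rose. At an unadjusted p under 0.05, 11 were higher in paced RA and 7 in paced RV, as were 1181 and 726 of all 10986 genes. The median RV effect of the complement list was 0.28, with 15 of the 18 above 0. The median difference of the complement list was 0.32. CFI, a complement protease, rose by 1.98 in RA with an RV effect of 1.04 that did not pass, and the difference of 0.94 was not past the threshold. Of 23 interferon-response genes 1, SAMD9L, rose in RA (0.99), where 2.78% of all genes rose. The median difference of the interferon list was 0.05.

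**Figure D3:**
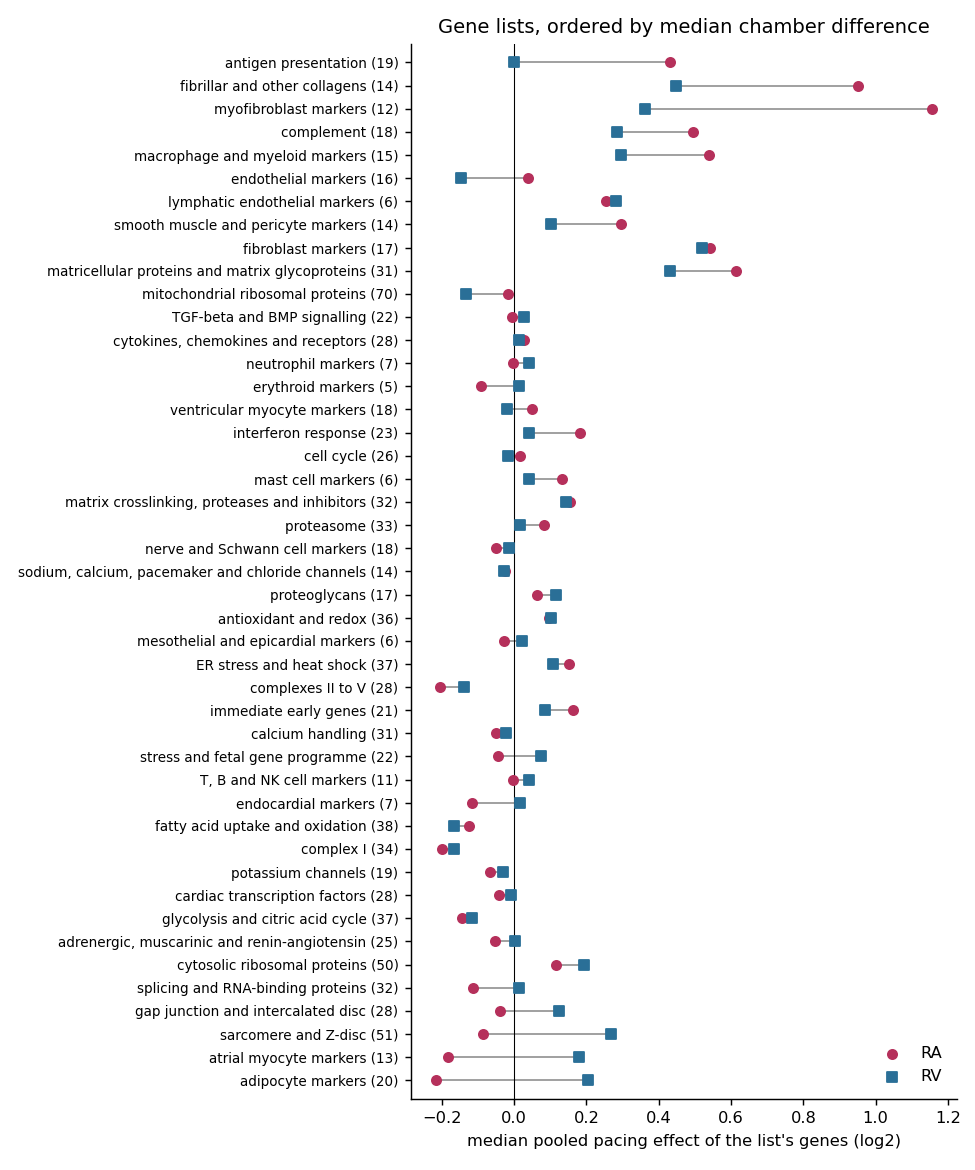
Median pooled pacing effect of each gene list in RA (circles) and RV (squares), as log2 differences, with the number of genes tested in brackets; lists are ordered by their median chamber difference. The widest gaps with RA higher are in antigen presentation, collagens and myofibroblast markers, and with RV higher in adipocyte, atrial myocyte and sarcomere lists.

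Matrix genes were shifted up in both chambers. Of 31 matricellular and glycoprotein genes 12 rose in RA (2.78% of all genes did) and 2 in RV (0.382% of all genes), but at an unadjusted p under 0.05 the counts were 18 and 17. The list's median effects were 0.61 and 0.43, and its chamber differences were past the unadjusted threshold as higher in 2 genes and as lower in 2. THBS4, the matricellular thrombospondin 4, read 5.76, 5.55 and 5.46 in RA controls, 10.79, 9.0 and 10.61 at 2 weeks, and 11.04 and 8.31 at 5 weeks. In RV it read 5.93, 5.59 and 5.46 in controls, 6.63, 5.82 and 6.08 at 2 weeks, and 7.36, 7.46 and 7.77 at 5 weeks. Every paced RA array exceeded every RV array, although the 5-week RV arrays were all above their controls. THBS4 rose by 4.31 (SE 0.46) in RA, its RV effect was 1.19 (SE 0.44, adjusted p = 0.242 in limma), and the chamber difference was 3.12 (SE 0.64, adjusted p = 0.264 in limma). The left-out array read 5.96.

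POSTN, periostin, a product of activated fibroblasts, read 3.97 to 4.48 in RA controls and 3.93 to 4.13 in RV controls, near background. Paced RA read 9.52, 7.78, 9.14, 9.68 and 5.80, and paced RV 5.29, 4.18, 4.21, 3.57, 5.38 and 5.70, so the lowest paced RA array lay just above the highest paced RV array. As shifts from each chamber's controls the arrays overlapped, from 1.60 in RA to 1.68 in RV, and POSTN is not among the separated genes. POSTN rose by 4.08 in RA, with an RV effect of 0.70 and a chamber difference of 3.38 (SE 0.90, adjusted p = 0.366 in limma). Its control values lie below the signal limit, where log2 values are imprecise.

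Of 14 collagen genes tested 6 rose in RA and 0 in RV, against 2.78% and 0.382% of all genes. The median RV effect was nonetheless 0.45, with 11 of the 14 above 0 and 6 past an unadjusted p of 0.05 as higher, and 1 collagen gene was past it for the chamber difference. Their median chamber difference was 0.83 at 2 weeks and -0.04 at 5 weeks. COL1A1, the main fibrillar collagen chain, had a chamber difference of 1.79 at 2 weeks and -0.10 at 5 weeks, with a pooled value of 0.84 (interval -0.56 to 2.25). FN1, fibronectin, differed by 1.44 at 2 weeks and -0.71 at 5 weeks, and FBN1, the microfibril protein fibrillin, by 1.17 and -0.36. The RV levels of FN1 were 8.22 to 8.89 in controls, 8.82 to 9.60 at 2 weeks and 10.01 to 10.58 at 5 weeks, and in RA 9.94 to 10.39, 11.49 to 12.55, and 10.51 and 11.90, so the paced RA stages overlapped. The other FN1 probe sets had RA effects of 0.14 and 0.63. For the change between stages no gene passed (smallest adjusted p = 0.247 in limma), with 696 genes past an unadjusted p of 0.05.

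Myofibroblast markers, which include THBS4 and POSTN, had 4 of 12 members rise in RA and 0 in RV, against 2.78% and 0.382% of all genes. The median chamber difference of these markers was 0.34. Of 17 fibroblast markers 9 rose in RA and 4 in RV, against the same shares. The fibroblast list had median effects of 0.54 and 0.52 and a median chamber difference of 0.15. The lists were not tested against each other. FBLN2, fibulin 2, rose in RV by 0.81 with an RA effect of 0.10, from a level of 9.23 to 9.45 in RA controls and 7.23 to 7.68 in RV controls. ABI3BP, a matrix protein, read 6.87 to 7.82 in RA controls and 7.17 to 7.67 in paced RA, and 4.86 to 5.15 and 5.69 to 7.23 in RV. It rose in RV (adjusted p = 0.0159 in limma) from controls below the signal limit, its RA effect was 0.03, and a second probe set of the gene gave a chamber difference of 0.01. SFRP1, a secreted inhibitor of Wnt signalling, read 7.88 to 8.04 in RV controls and 8.11 to 8.84 in paced RV, while paced RA (7.85 to 8.33) overlapped its controls (8.06 to 8.65).

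**Figure D4:**
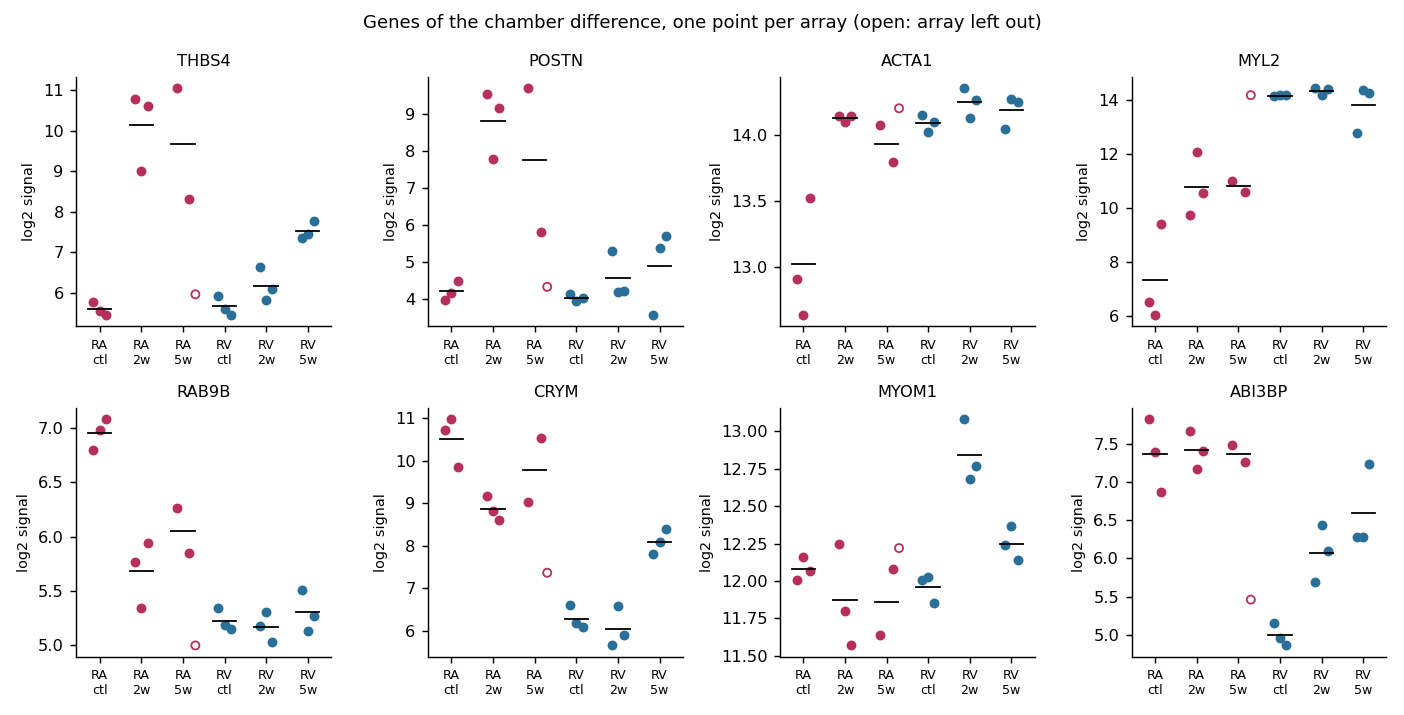
Log2 signal of 8 genes in each array, by chamber (RA red, RV blue) and group, with bars at group means; the open point is the array left out. THBS4, POSTN and MYL2 are higher in paced than in control RA, RAB9B is lower, and MYOM1 and ABI3BP are higher in paced than in control RV.

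Most sarcomere genes had a lower pacing effect in RA than in RV, but 0 passed for the chamber difference. Of 51 sarcomere and Z-disc genes tested, 5 rose and 3 fell in RA (2.78% and 1.39% of all genes), and 1 rose in RV (0.382%). The median effect was -0.09 in RA and 0.27 in RV. At an unadjusted p under 0.05, 16 of the list had a lower pacing effect in RA than in RV and 3 a higher one. Of all genes 3.32% and 3.70% did. With the left-out array included, 12 of the list had a lower one. As lower 8 were separated and as higher 2, against 2.46% and 2.45% of all genes. The median chamber difference was -0.42 at 2 weeks, with 20 lower and 4 higher at the unadjusted threshold. At 5 weeks it was -0.16, with 10 lower and 3 higher. MYOM1, which crosslinks myosin at the M-band, read 12.01, 12.16 and 12.07 in RA controls and 11.57 to 12.25 in paced RA, but 11.85 to 12.03 in RV controls and 13.08, 12.68 and 12.77 at 2 weeks and 12.24, 12.37 and 12.14 at 5 weeks in RV. Every paced RV array thus lay above the RV controls, while RA overlapped. The chamber difference was -0.80 (SE 0.19, adjusted p = 0.331 in limma), with an RV effect of 0.58 that did not pass (adjusted p = 0.0560).

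Of the 51 members 42 had a chamber difference below 0. MYL7, the regulatory light chain typical of atrium, differed by -0.61, and XIRP1, an actin-binding repeat protein, by -0.50. ACTN2, the Z-disc actinin, had RV levels of 12.01 to 12.19 in controls and 12.23 to 12.75 at 2 weeks. TTN, titin, fell in RA by 0.88 (levels 13.33 to 13.44 in controls, 11.87 to 13.35 in paced RA), with an RV effect of -0.10. ACTN2 and TTN were taken up after their values were seen. Intercalated-disc genes leaned the same way, with 6 of 28 lower and 0 higher at the unadjusted threshold, against 3.32% and 3.70% of all genes. The median of the list was -0.17. CXADR, a cell adhesion molecule and virus receptor, rose in RV by 0.54 with an RA effect of 0.04. NRAP, an actin-anchoring protein, differed by -1.35 at 2 weeks and -0.10 at 5 weeks.

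Of 18 ventricular myocyte markers 10 had a chamber difference above 0 and 8 below 0, with a median of 0.05. The 3 past the unadjusted threshold were all higher, against 3.70% of all genes. MYL2, the ventricular regulatory light chain, read 6.51, 6.04 and 9.38 in RA controls, 9.73, 12.06 and 10.53 at 2 weeks, and 10.99 and 10.59 at 5 weeks. RV read 14.13 to 14.17 in controls and 14.19 to 14.42 at 2 weeks, near the top of the array range, and 12.76, 14.35 and 14.26 at 5 weeks. The paced RA arrays were all above the controls, of which replicate 3 was the highest, and all remained below every RV array. MYL2 rose by 3.47 (SE 0.61) in RA, its RV effect was -0.09, and the chamber difference was 3.56 (SE 0.84, adjusted p = 0.331 in limma). Without RA control 3, the highest control, the MYL2 interaction was 4.59 and passed (adjusted p = 0.0079 in limma). Leaving out the highest control by itself widens the difference. In the other 29 of 30 alternatives the MYL2 interaction did not pass. MYL2 was also among the chamber markers by which 1 array was left out.

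MYL3, the ventricular essential light chain, rose by 1.54 in RA with an RV effect of -0.43. LRRC39, a myosin-interacting M-band protein, rose by 1.01 in RA from 8.05 to 8.59 in controls to 8.65 to 9.77, with an RV effect of -0.11. Of the ventricular markers 5 rose in RA, against 2.78% of all genes, and 0 passed in RV. Their mean level was 7.98 to 8.18 in RA controls and 8.32 to 8.67 in paced RA, against 9.15 to 9.61 in the RV arrays. Of 13 atrial markers 0 passed in either chamber, the median difference was -0.40, and 12 were below 0. The median effects of the atrial markers were -0.18 in RA and 0.18 in RV. At an unadjusted p under 0.05, 4 were lower and 1, the potassium channel gene KCNA5, higher, against 3.32% and 3.70% of all genes. The part of ventricular myocytes in the RA samples was not tested.

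ACTA1, skeletal actin, part of the fetal stress programme, read 12.91, 12.64 and 13.52 in RA controls and 13.79 to 14.14 in paced RA. In RV it read 14.02 to 14.15 in controls and 14.04 to 14.35 when paced, near the ceiling. It rose by 1.00 in RA, with an RV effect of 0.13 and a chamber difference of 0.88 (SE 0.19, adjusted p = 0.306 in limma). Control RA lay 1.07 below control RV, and paced RA 0.19 below paced RV. All 3 ACTA1 probe sets gave positive chamber differences, of 0.88, 0.95 and 1.29.

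NPPB, the gene of B-type natriuretic peptide, varied widely. RA controls read 8.59, 11.21 and 12.38 and paced RA 12.47 to 13.17, while RV controls read 6.30 to 6.39 and paced RV 6.34 to 11.04. Its effects of 2.13 in RA and 1.87 in RV did not pass, and the chamber difference of 0.25 had an interval of -2.16 to 2.67. Its sign turned with the left-out array included (-0.67).

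Of 19 potassium channel genes 2 had a chamber difference past the unadjusted threshold as higher and 0 as lower, against 3.70% and 3.32% of all genes, with a median of -0.06. KCNIP2, a subunit of the transient outward current, fell in RA by 1.38 and had an RV effect of -1.27 (adjusted p = 0.112 in limma), with a difference of -0.10 (interval -1.17 to 0.97). RYR2, the calcium release channel, fell in RA by 0.85, with an RV effect of -0.38 and a difference of -0.47 (interval -0.97 to 0.03). ATP2A2, the calcium pump of the sarcoplasmic reticulum, differed by -0.04 (interval -0.42 to 0.34). Over 31 calcium-handling genes the median was -0.02, with 1 past the unadjusted threshold as higher and 2 as lower. Signs of values this near 0 turned under other settings for KCNIP2, ATP2A2 and CACNA1C.

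Among the genes with a negative chamber difference, RAB9B, a small GTPase of endosomal transport, had the smallest p. It read 6.80, 6.98 and 7.08 in RA controls, 5.77, 5.34 and 5.94 at 2 weeks, and 6.26 and 5.85 at 5 weeks, and lay between 5.03 and 5.51 in all RV arrays, near background. All paced RA arrays lay below the RA controls. RAB9B fell by 1.08 in RA (SE 0.13), its RV effect was 0.01, and the chamber difference was -1.10 (SE 0.19, adjusted p = 0.0759 in limma). Its RV level was near the signal limit, which leaves little room for a fall there.

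CRYM, a thyroid hormone-binding protein, read 10.73, 10.98 and 9.85 in RA controls, 9.18, 8.82 and 8.62 at 2 weeks, and 9.04 and 10.53 at 5 weeks. In RV it read 6.09 to 6.60 in controls, 5.66 to 6.59 at 2 weeks and 7.80 to 8.39 at 5 weeks. RA overlapped its controls at 5 weeks through 1 array, and the 5-week RV arrays lay above the RV controls, which the 2-week arrays overlapped. The difference was -1.97 (SE 0.43, adjusted p = 0.306 in limma), with a fall by 1.19 in RA and an RV effect of 0.78 that did not pass. The control chambers differed by 4.23 and the paced chambers by 2.26.

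ACSBG1, an acyl-CoA synthetase, fell in RA by 1.36, from 8.17 to 9.73 in controls to 7.36 to 7.92, with RV between 6.56 and 7.0. DNAJA4, a heat shock co-chaperone, fell in RA (adjusted p = 0.0181 in limma) with an RV effect of 0.18. TLE1, a transcriptional corepressor, differed by -1.14, with effects of -0.47 and 0.67 that did not pass, and a second probe set gave -0.01. HNRNPD and CIRBP, RNA-binding proteins, fell in RA by 0.53 and 0.95, with RV effects of -0.06 and -0.25. Of 32 splicing and RNA-binding genes 4 fell in RA (1.39% of all genes did). At the unadjusted threshold 7 were lower and 0 higher, against 3.32% and 3.70% of all genes. The median chamber difference was -0.15.

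Fat-cell genes had opposite median effects in the chambers. Of 20 adipocyte markers 3 fell in RA (1.39% of all genes did) and 0 passed in RV, with medians of -0.22 and 0.20. The median chamber difference was -0.41. At the unadjusted threshold 11 were lower and 0 higher, against 3.32% and 3.70% of all genes. As lower 7 were separated (2.46% of all genes were). ADIPOQ, adiponectin, read 9.81 to 10.58 in RA controls, and 7.29, 9.65, 7.67, 7.16 and 9.54 in paced RA. RV controls read 8.19, 6.39 and 7.10 and paced RV 7.07, 10.87, 7.01, 10.64, 7.74 and 9.47. Paced RA lay below its controls throughout, while paced RV ranged from within its controls to well above them. The difference was -3.60 with an SE of 1.19 (adjusted p = 0.558 in limma); the gene was taken up after its values were seen.

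RBP4, retinol-binding protein, differed by -2.31, with an RV effect of 1.89 (adjusted p = 0.0655 in limma) and RV arrays from 5.41 to 7.07 in controls and 6.96 to 9.39 when paced. FASN and SCD, enzymes of fatty acid synthesis and desaturation, fell in RA by 0.50 and 1.01 with RV effects of 0.08 and 0.03. The mean level of the adipocyte markers was 7.77 to 8.16 in RA controls and 7.33 to 7.89 in paced RA, against 7.09 to 7.45 and 7.24 to 8.13 in RV, and the left-out array read 7.12. The part of fat in the samples was not tested.

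Mitochondrial ribosomal proteins, with 70 genes tested, had a median chamber difference of 0.11, and 57 were above 0. The median difference was 0.04 at 2 weeks, with 43 above 0, and 0.17 at 5 weeks, with 61 above 0. Medians of the effects were -0.02 in RA and -0.13 in RV, 2 fell in RA (1.39% of all genes did) and 0 passed in RV. The 50 cytosolic ribosomal proteins had a median of -0.09, and 5 were above 0. Their median was -0.18 at 2 weeks, with 1 above 0, and -0.02 at 5 weeks, with 20 above 0. Genes of respiratory complex I fell in RA in 9 of 34 cases and in RV in 1, against 1.39% and 0.246% of all genes. Their medians were -0.20 and -0.16, with a median difference of -0.06. NEFL, the light neurofilament chain, read 8.30 to 9.21 in RV controls, 4.93, 5.49 and 4.10 at 2 weeks, and 8.21, 5.38 and 7.20 at 5 weeks, and stayed between 4.57 and 6.01 in RA. NEFL fell by 2.82 in RV (adjusted p = 0.0159 in limma), and its RA effect was -0.07, at levels near background.

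The stages were compared with the difference of the chambers at each. At 2 weeks, with 3 arrays per group, 3 genes passed: DLA-DMA (1.94), KLHL5 (1.40) and USP28 (-0.99), each with adjusted p = 0.0383 in limma. At 5 weeks, with 2 RA arrays, limma passed 0 genes (smallest adjusted p = 0.382), with 794 past an unadjusted p of 0.05. KLHL5, a kelch-family adaptor, rose by 0.96 in RA with an RV effect of 0.03, and its chamber difference was 0.46 at 5 weeks. USP28, a deubiquitinase, read 7.26 to 7.41 in RV controls and 8.17, 7.95 and 8.14 at 2 weeks, and 7.41 to 7.63 at 5 weeks, while RA stayed between 7.13 and 7.76. Its chamber difference was -0.03 at 5 weeks. A second USP28 probe set gave a pooled chamber difference of -0.03, against -0.51, with an RV effect of -0.08, and without probe sets that may cross-hybridise 0 genes passed at 2 weeks. In controls and at 2 weeks, RA and RV arrays of one number deviated together. The early interaction is the model's name for the 2-week difference. With the number as a replicate block it passed in 34 genes (fixed block) or 6 genes (random block). The fixed block used complete pairs, which leaves out RV 5-week replicate 3. It also paired 5-week arrays, which did not deviate together, and the random block did not. DLA-DMA had 1.70 (SE 0.32) at 5 weeks against 1.94 (SE 0.30), and HLA-DRB1 1.98 against 2.34.

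TOP2A, a topoisomerase of dividing cells, had a chamber difference of 1.33 at 2 weeks and -0.40 at 5 weeks. RA read 4.76 to 5.10 in controls, near background, 5.83 to 7.01 at 2 weeks and 4.98 and 5.13 at 5 weeks. LMO7, a LIM-domain protein, differed by -0.86 and 0.48. The change of the difference between stages did not pass for either gene (adjusted p = 0.247 in limma for each).

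**Figure D5:**
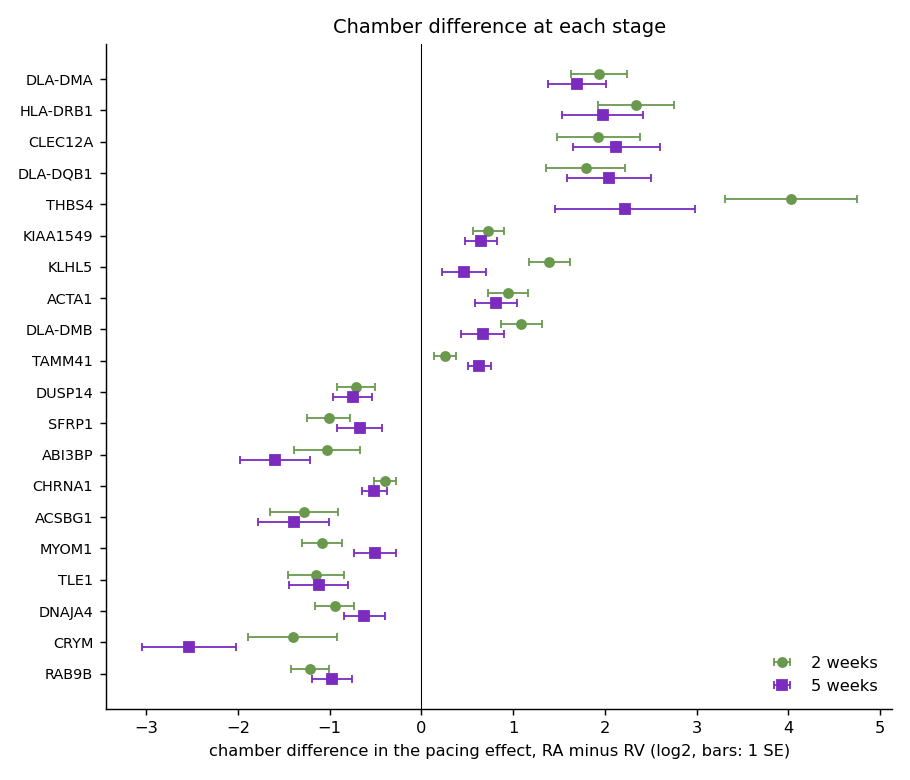
Chamber difference in the pacing effect (RA minus RV, log2) at 2 weeks (circles) and 5 weeks (squares), with bars of 1 SE. The 20 genes are the 10 of smallest pooled p in each direction of the chamber difference. Both stages use the same control arrays and the genes were chosen on the pooled value; DLA-DMA stands at 1.94 and 1.70, KLHL5 at 1.40 and 0.46.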

How the data were processed

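Probe set signals of 18 Affymetrix canine arrays of total RNA were taken as the authors deposited them, in log2 units, a scale inferred from their range. MAS5 is the tool named in the submitters' processing notes, with its settings not given in the sources used here. The deposited values were not normalized again. Of 43035 probe sets, 111 controls and then the 40% with the lowest mean signal were left out, leaving 25752. Symbols came from the platform annotation (29254 probe sets with 1 symbol, 439 with several, 13231 with none).

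A limma 3.58.1 model (R 4.3.3) with 6 group means was fitted over 17 arrays (11 residual degrees of freedom), with a trended variance prior, and tested on simulated data. Each stage had equal weight in a pooled effect. The smallest and largest array medians were 5.65 and 5.75. Replicates limit the precision. The 45 gene lists (1371 genes, 975 tested), the members and the tests were chosen with earlier results of these data known. By rule, named genes were the 10 of smallest p in each direction and up to 4 of smallest p in each list described. The rule also held 26 genes of heart failure and ion channels, and 5 in each direction for the change between stages. Not all of these genes are described in the text. Symbols that start with LOC are counted but not named. Deviations from group means of RA and RV arrays with the same replicate number were compared: the correlations were 0.30, 0.20 and 0.39 for the control pairs, 0.14, 0.24 and 0.12 for the 2-week pairs, and -0.06 and -0.37 for the 5-week pairs. The random replicate block thus paired controls and 2-week arrays but not 5-week arrays. The fixed block also paired 5-week replicates 1 and 2 of RA and RV, whose deviations did not go together. Alternatives covered the array left out, filters, probe set choice, normalization, weights, variance prior, replicate blocks and leaving out each array. Probe sets called cross-hybridising below are those with the suffix s_at or x_at, which may bind several transcripts. Cross-hybridisation itself was not measured. Figures were drawn with Python and matplotlib.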

Additional observations from a re-analysis of the deposited data

Results flagged for a closer look

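The chamber difference in the pacing effect passed its own test for DLA-DMA, at 1.82 over both stages. At 2 weeks it passed for DLA-DMA at 1.94, for KLHL5 at 1.40 and for USP28 at -0.99. The array labelled RA 5 weeks, replicate 3, which was left out of the comparisons except as an alternative with all 18 arrays, read 14.17 for MYL2 and 13.89 for MYL3, above the RA controls (6.04 to 9.38 and 7.59 to 7.97).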

How the results depend on the processing

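With 1 gene called, the pooled interaction count moved in most settings. It was 0 with all 18 arrays, with 4 groups of equally weighted arrays, with the mean of a gene's probe sets and with a robust prior, 3 with every probe set or with array weights, and 6 with a fixed replicate block over complete pairs (CLEC12A, DLA-DMA, DLA-DQB1, HLA-DRB1, NNAT and THBS4). That fit does more than block controls and 2-week arrays. It also leaves out RV 5-week replicate 3, which has no RA partner, and leaving out that array alone gave 0. It also pairs 5-week replicates 1 and 2, whose deviations correlated at -0.06 and -0.37. The DLA-DMA interaction passed in 13 of 31 alternatives, with chamber differences of 1.54 to 1.96 and adjusted p between 0.00163 and 0.674. Leaving out 1 array gave 0 to 56 pooled calls: 56 without RA 5-week replicate 2, which leaves that group 1 array assumed to vary like the others, 6 without RA 2-week replicate 2, 3 without RA control 3, 2 without RV 2-week replicate 2 and 0 in the other 13. The pooled RA effect passed in 458 genes, in 35 with all 18 arrays and in 1313 probe sets when all were tested, and in 111 to 1253 genes when 1 array was left out (111 without RA 5-week replicate 1, 142, 137 and 212 without RA controls 1, 2 and 3, 299 without RA 2-week replicate 3, 1253 without RA 5-week replicate 2). The pooled RV effect passed in 69 genes, and in 0 with all 18 arrays, 38 with 4 groups, 32 with the mean of probe sets, 35 without cross-hybridising probe sets, 152 with quantile normalization and 371 with array weights. Leaving out 1 array gave 3 to 161 (12, 3 and 8 without RV controls 1, 2 and 3, 35, 161 and 41 without RV 2-week replicates 1, 2 and 3, 33, 34 and 38 without RV 5-week replicates 1, 2 and 3, 112 without RA 2-week replicate 1, 114 and 115 without RA 5-week replicates 1 and 2). The early interaction count (2 weeks) of 3 became 0 with all 18 arrays, with the mean of probe sets or without cross-hybridising probe sets, 1 with every probe set, 7 with quantile normalization, 15 with array weights, 34 with the fixed and 6 with the random replicate block, and 0 to 16 without 1 array (16 without RV 2-week replicate 2, 14 without RA 2-week replicate 2, 10 without either RA 5-week replicate, 5 without RV 5-week replicate 1, 1 without RA control 3, and 0 without any of RA controls 1 and 2, the RV controls, RA 2-week replicate 3, RV 2-week replicates 1 and 3 and RV 5-week replicate 3). The late interaction count (5 weeks) of 0 was 2 with every probe set and 0 to 82 without 1 array (82 without RA 5-week replicate 2, 2 without RA control 3), and the late minus early interaction count 0 to 8 (8 without RV 2-week replicate 2, 1 without RA 2-week replicate 2). Over the named genes, 7 chamber differences and the stage change of USP28 changed sign. With all 18 arrays the NPPB interaction was -0.67, the KCND3 interaction 0.0067, the KCNIP2 interaction 0.052, the CACNA1C interaction 0.052 and the ATP2A2 interaction 0.0067. With the mean of probe sets the KCNQ1 interaction was 0.011 and that of ATP2A2 0.073, and without cross-hybridising probe sets ATP2A2 was at 0.19 and the USP28 late minus early value at -0.22. CACNA1C was at 0.017 with 4 groups, 0.0049 with quantile normalization, 0.039 with array weights and 0.011 with the fixed replicate block, which gave 0.027 for KCND3 and 0.0050 for ATP2A2; leaving out RV 5-week replicate 3 without a block gave the same 3 values. Leaving out 1 array gave -0.22 to 0.13 for ATP2A2, -0.12 to 0.07 for CACNA1C, -0.14 to 0.094 for KCND3, -0.17 to 0.025 for the KCNH2 interaction, -0.43 to 0.23 for KCNIP2, -0.16 to 0.0092 for KCNQ1 and -0.82 to 1.08 for NPPB, whereas USP28 stayed at 0.83 to 1.09. The cause of these changes was not tested.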
